A study of Mus musculus with 12 samples.

Results

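The circadian clock genes described here are 10 core genes of the daily clock: Arntl (also called Bmal1), Clock, Per1, Per2, Per3, Cry1, Cry2, Dbp, Nr1d1 and Nr1d2. They were chosen by name from the 25887 genes of the deposited tables, not by a threshold on their values. RNA was sequenced from 12 libraries of primary mouse dermal papilla cells sorted by FACS. The dermal papilla is the cluster of mesenchyme that each hair follicle grows around. The 4 groups held 3 libraries each. At P20 (postnatal day 20) the WT libraries and the Smo* mutant libraries carried the labels female and telogen, when the hair cycle rests. At P28 (postnatal day 28) all libraries were labelled male, the WT as anagen VI and the Smo* mutant as anagen I-III, both growth stages. Smo* is a gain-of-function form of Smo, which encodes the receptor-like protein that relays Hedgehog signals, and the series title calls it specific to the dermal papilla. The sources used here name neither the Cre or promoter that drives it nor the time of day of each collection. Age, sex and hair cycle stage differ together between P20 and P28, and genotype and stage differ together within P28. Their effects cannot be told apart from each other, or from any difference between groups in the unstated time of day.

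Reads on genes ranged from 36323058 to 48926831 per library. The clock genes were well covered, with recovered reads from 133 for Arntl to 9221 for Per1 in the library where each was lowest and highest, and all 10 passed the filter on low values in every comparison. The labels do not tie each library to its own mouse, so the p-values reflect only how these libraries vary, which may be technical. Gli1, a target of Hedgehog signalling, was higher in Smo* at both ages, by 1.63 and 1.52 on the log2 scale (adjusted p = 0.0449 and 0.000237, limma). Smo itself had log2 fold changes of 0.47 and 0.46, with adjusted p = 0.111 and 0.0502. All 12 dermal papilla markers (Corin and Wif1 among them) had reads. Their summed level lay between 52055 and 82674 in the P20 libraries and between 196632 and 413376 at P28, except in P28 Smo* replicate 3. That library had a sum of 43462, and reads on 15453 genes against 17337 to 17926 in the other libraries. In bulk RNA, fewer cells of a type and less RNA per cell cannot be told apart.

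The mammalian clock is a feedback loop of transcription. The proteins of Arntl and Clock pair and activate genes through E-box sequences, among them the Per and Cry genes, whose proteins return to block that pair. Nr1d1 and Nr1d2 (REV-ERB alpha and beta) are also switched on by the pair and repress Arntl through ROR elements, where the ROR receptors activate. Dbp, with its relatives Tef and Hlf, activates through D-boxes, and Nfil3 opposes them there. In a tissue sampled through the day, Arntl transcripts run in nearly the opposite phase to those of Nr1d1 and Dbp. Clock genes are active in skin and hair follicles, and mice that lack Arntl enter anagen late.

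The promoter windows show where the letters of these elements stand in the genes whose values are given next. RefSeq windows (GRCm38.p6, 250 bases before to 50 after a start) were found for 9 of the 10 genes, 13 windows in all. Per2 has no entry in that table. Both strands were searched for the E-box CACGTG, the E-prime box CACGTT, the D-box TTATGTAA and a variant of it, TTATGCAA, the ROR element core TAGGTCA and the cyclic AMP response element TGACGTCA. None of these overlaps another in the windows printed here. In the lines below capitals mark a match, and AACGTG is the E-prime box read on the other strand.
Arntl, chr7:113207261-113207560, plus strand: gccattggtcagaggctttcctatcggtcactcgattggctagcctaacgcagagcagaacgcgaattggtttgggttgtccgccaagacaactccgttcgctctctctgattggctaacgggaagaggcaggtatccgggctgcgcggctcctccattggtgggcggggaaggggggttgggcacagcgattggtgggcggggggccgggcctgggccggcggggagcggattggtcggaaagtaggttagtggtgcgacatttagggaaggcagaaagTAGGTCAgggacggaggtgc
Per1, chr11:69098699-69098998, plus strand: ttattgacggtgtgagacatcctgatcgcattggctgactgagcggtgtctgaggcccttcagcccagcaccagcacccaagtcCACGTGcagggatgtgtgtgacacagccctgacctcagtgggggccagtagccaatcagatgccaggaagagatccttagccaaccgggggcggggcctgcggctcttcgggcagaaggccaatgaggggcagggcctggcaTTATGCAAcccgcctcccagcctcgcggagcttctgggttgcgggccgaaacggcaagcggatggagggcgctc
Per3, chr4:151044616-151044915, minus strand: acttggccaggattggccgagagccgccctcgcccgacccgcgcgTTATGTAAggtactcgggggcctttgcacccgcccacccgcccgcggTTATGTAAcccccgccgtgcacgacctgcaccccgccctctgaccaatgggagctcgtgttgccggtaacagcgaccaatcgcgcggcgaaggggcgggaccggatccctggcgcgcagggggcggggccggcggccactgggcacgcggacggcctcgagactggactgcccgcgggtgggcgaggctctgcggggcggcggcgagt
Cry1, chr10:85185005-85185304, minus strand: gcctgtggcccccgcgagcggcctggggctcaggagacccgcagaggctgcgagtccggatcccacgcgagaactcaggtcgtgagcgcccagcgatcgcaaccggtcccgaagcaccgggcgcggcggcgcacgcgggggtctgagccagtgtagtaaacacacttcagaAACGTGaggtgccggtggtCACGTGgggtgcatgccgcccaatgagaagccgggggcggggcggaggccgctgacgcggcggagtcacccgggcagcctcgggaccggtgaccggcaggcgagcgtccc
Nr1d1, chr11:98775328-98775627, minus strand: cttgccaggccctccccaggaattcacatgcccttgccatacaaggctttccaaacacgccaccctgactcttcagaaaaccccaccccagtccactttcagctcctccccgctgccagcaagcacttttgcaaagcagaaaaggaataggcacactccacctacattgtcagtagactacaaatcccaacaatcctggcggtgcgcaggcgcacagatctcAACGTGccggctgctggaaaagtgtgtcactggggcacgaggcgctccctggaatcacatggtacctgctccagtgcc
Counted from the start of transcription, the Arntl window holds a ROR core 31 bases after it. The Per1 window holds an E-box at -166 and the D-box variant at -24. Per3 has 2 D-boxes, at -205 and -158. Cry1 has an E-prime box at -79 and an E-box at -60, and Nr1d1 an E-prime box at -28. Cry2 (window not printed) has an E-prime box at -166. The windows of Clock, Dbp and Nr1d2, 1 of the 2 Per1 windows and 1 of the 2 Arntl windows hold none of the letters searched, and no window of these genes holds the cyclic AMP element. Among all 32851 windows of the table, 7.15% hold the E-box, 4.68% the E-prime box, 0.938% the D-box, 0.743% its variant, 2.61% the ROR core and 1.79% the cyclic AMP element. A match is a description of letters and was not tested as a binding site.

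The activators differed from each other in how steady they were. Arntl (GRCm38, chr7:113207465-113314126, plus strand) had normalized read counts of 155, 138 and 721 in the WT libraries at P20, 525, 274 and 285 in Smo* at P20, 555, 387 and 501 in WT at P28 and 216, 322 and 525 in Smo* at P28. Counts here are the authors' reads divided by a size factor per library, listed in the order of replicates 1, 2 and 3. WT replicate 3 at P20 was the highest of all 12 libraries and the other two WT libraries of that age were the lowest, so every pair of groups overlapped. Clock (chr5:76209868-76304792, minus strand) ran from 2185 to 3549.9 over the 12 libraries, with means of 2943 ± 527 and 2697 ± 383 (SD, n = 3) in WT and Smo* at P20 and 2499 ± 259.9 and 2293 ± 165 at P28. It was the steadiest of the 10, and no pair of groups next to each other in the order of its means was separated.

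The period genes, whose products form the repressing complex with the cryptochromes, were higher at P20 than at P28 in most libraries. Per1 (chr11:69095217-69109960, plus strand) had 10424, 7986 and 7745 normalized reads in WT and 7222, 5193 and 8301 in Smo* at P20, against 3045, 4260.4 and 2691 in WT and 7139.7, 3766 and 4214 in Smo* at P28. The WT libraries of the 2 ages did not overlap, whereas Smo* replicate 1 at P28 lay among the P20 values. For Per2 (chr1:91415982-91459324, minus strand) the counts were 3451, 2781 and 3203 in WT and 3381, 1559 and 2885 in Smo* at P20, and 619, 1409 and 599 in WT and 1482, 845 and 732 in Smo* at P28. All 6 libraries at P20 were above all 6 at P28, the nearest being Smo* replicate 2 at P20 and Smo* replicate 1 at P28. Per3 (chr4:151003652-151044665, minus strand) gave 2558, 2075 and 1464 in WT and 2004, 1576 and 2069 in Smo* at P20, and 1034, 1561 and 971 in WT and 2076, 1438 and 1169 in Smo* at P28, with overlap between all groups next to each other in order of mean.

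The 2 cryptochromes, which carry the repression of the activator pair, did not follow each other. Cry1 (chr10:85131700-85185064, minus strand) had 829, 789.9 and 1533 normalized reads in WT and 1442, 865 and 1311 in Smo* at P20, against 494, 622 and 575 in WT and 738, 580.4 and 531 in Smo* at P28. As with Per2, every P20 library exceeded every P28 library. Cry2 (chr2:92403646-92434043, minus strand) had 3855, 3009 and 2462 in WT and 3240.0, 2379 and 2479.7 in Smo* at P20, and 2230.1, 2629.6 and 1339.8 in WT and 4596, 3007 and 2785 in Smo* at P28. The Smo* libraries at P28 all lay above the WT libraries of that age, with Smo* replicate 1 the highest of the 12.

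Nr1d1 and Dbp had the widest ranges over the 12 libraries of the 10 genes. Nr1d1 (chr11:98767932-98775333, minus strand) had 10159, 6977 and 1129 normalized reads in WT and 1644, 3353 and 2722 in Smo* at P20, against 7283, 4406 and 5580.3 in WT and 7119, 7298 and 5836 in Smo* at P28. The WT libraries at P20 held both the highest and the lowest value of the 12, and the Smo* libraries at P20 were all below those at P28. Nr1d2 (chr14:18204054-18239127, minus strand) had 6409.6, 5459 and 2406 in WT and 3985, 3437 and 3122 in Smo* at P20 and 2715, 3402 and 1973 in WT and 6257, 3514 and 3185 in Smo* at P28, with overlap between all groups next to each other in order of mean. Dbp (chr7:45705088-45710203, plus strand), which encodes the D-box activator, had 2605, 1765 and 351 in WT and 601, 1023 and 904 in Smo* at P20, and 719, 1036 and 542 in WT and 1761, 1130.5 and 1579 in Smo* at P28. At P28 each Smo* library was above each WT library, and the lowest value of all was again WT replicate 3 at P20.

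**Figure D1:**
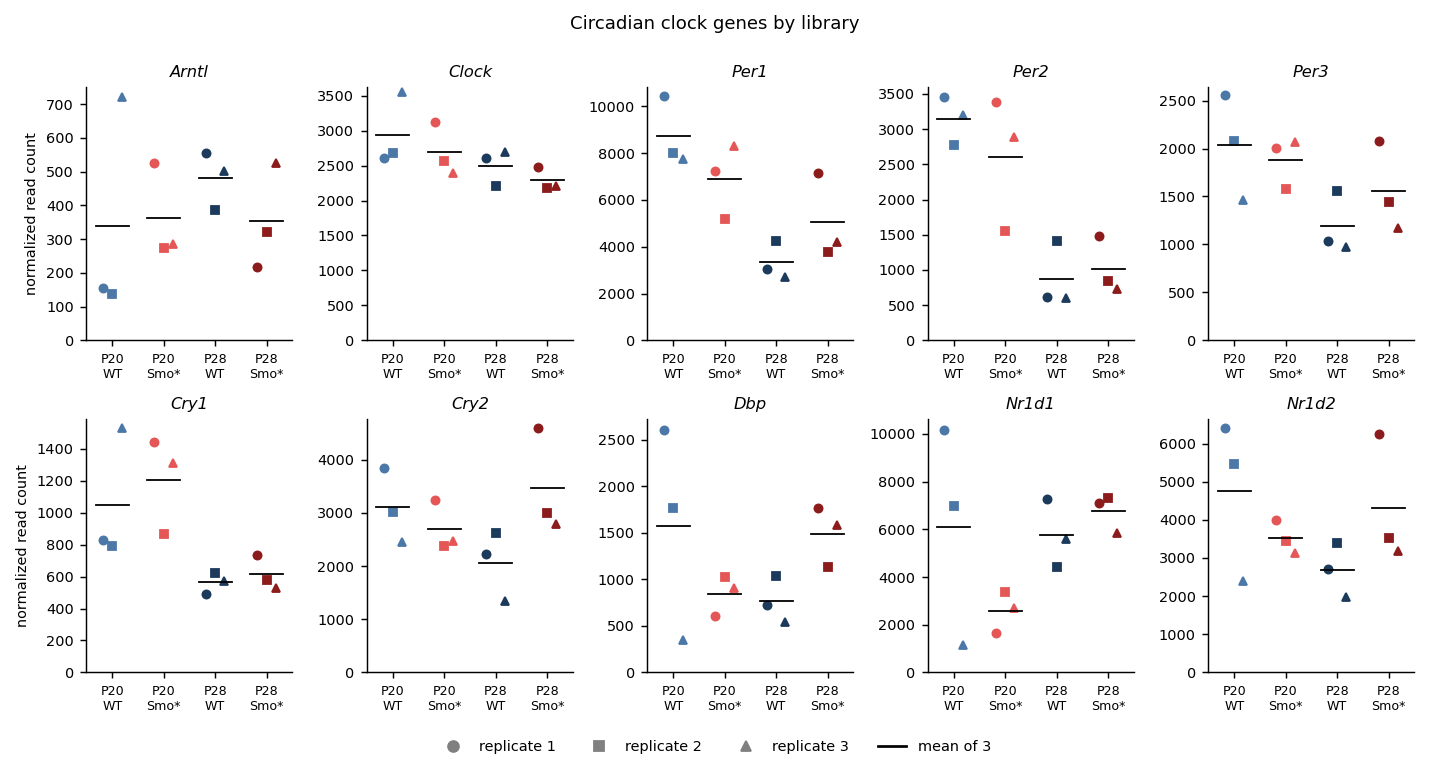
Normalized read count (vertical axis, from 0) of the 10 clock genes in each of the 12 libraries, by group on the horizontal axis; symbols mark replicates 1 to 3 and black lines the mean of 3. The triangle of P20 WT stands at 721 for Arntl and at 1129 for Nr1d1, away from the other 2 WT libraries of that age.

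WT replicate 3 at P20 stood apart from the other 2 WT libraries most clearly in Arntl, Dbp, Nr1d1 and Nr1d2. Against the mean of replicates 1 and 2, Arntl was 4.92 times as high in it, and Npas2, which encodes a relative of CLOCK that also pairs with ARNTL, was 4.08 times as high. Cry1 was 1.89 times as high. Nr1d1 was lower in it by a factor of 7.59, Dbp by 6.23, Ciart, a repressor of the activator pair, by 3.23, Bhlhe41, another such repressor, by 2.49, and Nr1d2 by 2.47. Per2 differed little, at 1.03 times the other libraries, and Per1 was at 0.841 times. The highest library was 9.0 times the lowest for Nr1d1 in this group, 7.43 times for Dbp and 5.21 times for Arntl. The SD of these 3 genes on the log2 scale exceeded that of 99.8%, 99.7% and 99.5% of the 12272 genes with a mean of at least 50 in that group. Over the 10 clock genes the median SD was 0.470 in WT at P20, beside 0.167 for all those genes. In the other groups it was 0.370 (Smo* at P20), 0.367 (WT at P28) and 0.404 (Smo* at P28), beside 0.190, 0.167 and 0.229.

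Other measurements moved with that library. Among the WT libraries at P20 it had the highest summed keratinocyte markers (1760 against 609 and 941), endothelial markers (3046 against 1577 and 2327), dermal sheath and smooth muscle markers (17430 against 6324 and 10421) and skeletal muscle markers (1831 against 743 and 842). Its dermal papilla markers summed to 53346 against 66825 and 52055, its immune markers to 678 against 790 and 1790, and its immediate early and dissociation genes to 655750 against 613235 and 608641. No keratinocyte, endothelial or smooth muscle marker was at 0 in all libraries. Their part in the clock values was not tested. Nr1d1 and Dbp each overlap a gene on the opposite strand, Thra over 263 and Sphk2 over 539 exon bases, and no source used here says if reads were counted by strand. Thra was at 1.01 and Sphk2 at 1.59 times the other WT libraries in this library. The part of the overlaps in the Nr1d1 and Dbp values was not tested.

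A ratio within a library removes differences in scaling between libraries. Per exon length, Nr1d1 was 160 and 123 times as high as Arntl in WT replicates 1 and 2 at P20 and 3.83 times as high in replicate 3. The same ratio was 7.66, 29.9 and 23.4 in Smo* at P20, 32.1, 27.8 and 27.2 in WT at P28, and 80.6, 55.5 and 27.2 in Smo* at P28. By this ratio Smo* replicate 1 at P20 was the library nearest to the WT replicate that stood apart. For Dbp over Arntl the ratios were 42.3, 32.1 and 1.22 in WT and 2.88, 9.37 and 7.98 in Smo* at P20, then 3.26, 6.72 and 2.72 in WT and 20.5, 8.84 and 7.56 in Smo* at P28. By that ratio the library nearest to the WT replicate that stood apart was WT replicate 3 at P28 (2.72). The ratio of Dbp to Arntl was higher in each Smo* library at P28 than in each WT library at P28, and the P20 groups overlapped.

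Across the 12 libraries the genes fell into sets that went together, given here as a description of libraries that share 4 groups and their scaling. Per1 followed Per2 (Pearson r = 0.938 of the log2 values, n = 12) and Per3 (r = 0.912), and Per2 followed Cry1 (r = 0.856). Cry2 followed Nr1d2 (r = 0.887), and Dbp followed Nr1d2 (r = 0.817) and Nr1d1 (r = 0.753). Arntl ran opposite to Nr1d2 (r = -0.818) and Dbp (r = -0.815), and Cry1 opposite to Nr1d1 (r = -0.808). Without WT replicate 3 at P20 (n = 11) these r were 0.936, 0.967, 0.851, 0.912, 0.807, 0.608, -0.790, -0.763 and -0.723, in the same order. Arntl and Nr1d1 had r = -0.558 with that library and -0.394 without it.

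**Figure D2:**
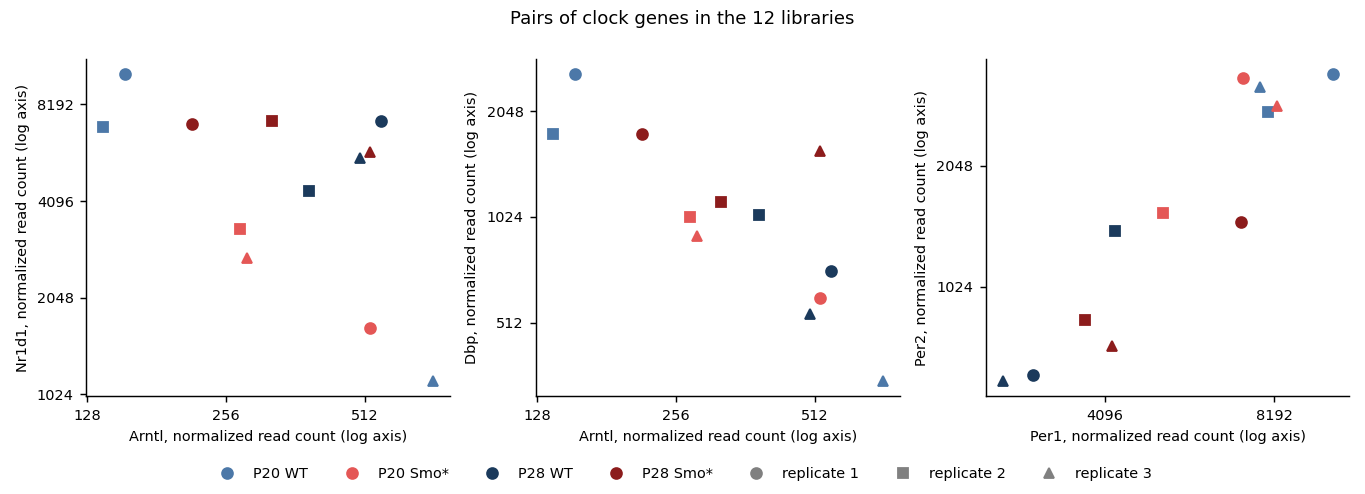
Normalized read counts of Nr1d1 and Dbp against Arntl, and of Per2 against Per1, in the 12 libraries (both axes logarithmic, base 2); colours mark groups and symbols replicates. The P20 WT triangle lies at the lower right for Nr1d1 and Dbp, while in the plot of Per2 it lies with the other P20 WT libraries.

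Whether the Smo* mutant differed from WT in resting follicles was asked with the 6 libraries of P20. None of the 10 clock genes passed the test at P20 (limma, adjusted p under 0.05), 0 of the 10 had an unadjusted p under 0.05, and 0 were called by edgeR, by DESeq2 or in the authors' deposited table. Among all genes tested limma called 0.696%, while 2.13% of genes were called in the authors' deposited table. The log2 fold changes of Smo* over WT ran from -0.81 (SE 0.71, adjusted p = 0.733) for Nr1d1 to 0.47 (SE 0.59, adjusted p = 0.832) for Arntl. Their median was -0.26, beside 0.00 over all genes, with 8 of the 10 below 0. The 2 groups overlapped for each of the 10 genes, while 16.4% of all genes had groups that did not overlap. Without WT replicate 3 the values were -1.77 for Nr1d1, -1.38 for Dbp and 1.23 for Arntl, still with no call (adjusted p = 0.0676, 0.0992 and 0.206). With Smo* and WT libraries of nearest title numbers as a replicate block, the count over all genes at P20 went from 102 to 239, and 0 of the 10 clock genes were called.

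At P28 the question was the same for follicles in growth, where WT and Smo* also differ in stage. None of the 10 genes was called by limma, 2 had an unadjusted p under 0.05, and 8.9% of all genes were called. Dbp and Cry2 were the 2 genes whose groups did not overlap, against 33.4% of all genes. Dbp was at 1490.0 ± 324 in Smo* and 766 ± 249.9 in WT, a log2 fold change of 0.99 (SE 0.26, adjusted p = 0.0522), which lay just outside the threshold. Of 22 alternatives 15 did not call Dbp and 7 did. Those that did not include edgeR (adjusted p = 0.0548), 1 fit of all 12 libraries (0.26), no variance trend, the authors' deposited table (0.296), and leaving out WT replicate 1 (0.125) or 3 (0.161) or Smo* replicate 1 (0.131) or 3 (0.0819). Those that did include TMM scaling (0.0497), a pseudocount of 5 (0.0491), DESeq2 (0.00529) and leaving out WT replicate 2 (0.043) or Smo* replicate 2 (0.0381). Cry2 was at 3463 ± 988 in Smo* and 2066 ± 660.3 in WT, with a log2 fold change of 0.76 (SE 0.28, adjusted p = 0.129). The authors' deposited table, which calls 16.8% of its genes at P28, gives Cry2 an adjusted p of 0.0388 with a log2 fold change of 0.68.

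The remaining genes at P28 had log2 fold changes from -0.52 (SE 0.31) for Arntl to 0.65 (SE 0.28) for Nr1d2, with none called by limma. Nr1d2 had an adjusted p of 0.192. The median of the 10 was 0.33, beside -0.01 over all genes, with 8 of the 10 above 0. Smo* replicate 1 was the highest of its group for 8 of the 10 genes and the lowest for Arntl. Without it Per2 and Cry1 had log2 fold changes of -0.03 and -0.02, against 0.27 and 0.12 with it. Among the WT libraries at P28, replicate 2 was the highest for 7 of the 10 and the lowest for Arntl, Clock and Nr1d1. Smo* replicate 3, whose dermal papilla markers were low (Corin at 751 against 4148 and 7856 in the other Smo* libraries), was the lowest of its group for 6 of the 10. Its summed adipocyte markers (5117 against 797 and 362) and skeletal muscle markers (1825 against 770 and 1018) were the highest of the group. Its Schwann cell markers (247 against 645 and 871) and keratinocyte markers (542 against 690 and 641) were the lowest. The part of these markers in the clock values was not tested. Leaving out Smo* replicate 3 brought no clock gene past the threshold. Endothelial markers also moved at P28, since 3 of 7 were higher in Smo*, beside 4.05% of all genes, with sums of 3462 to 5955 against 1654 to 3231 in WT, and their part in the clock values was not tested.

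Period gene transcripts were lower in the WT libraries of full growth at P28 than in those of the resting stage at P20. Of the 10 clock genes 4 were lower at P28 in WT and 0 were higher (limma, 1 fit of 12 libraries), beside 11.9% of all genes called lower and 25.4% called in either direction. Per2 fell from 3145 ± 339 to 875 ± 462, a log2 fold change of -1.96 (SE 0.36, adjusted p = 0.00225). Per1 fell from 8718 ± 1482 to 3332 ± 823, by 1.40 on the log2 scale (SE 0.25, adjusted p = 0.00195). Cry1 (log2 -0.83, SE 0.26, adjusted p = 0.0311) and Per3 (log2 -0.77, SE 0.25, adjusted p = 0.0412) fell less, and the WT groups overlapped for Per3. Per1, Per2 and Cry1 were the 3 genes whose WT groups did not overlap, all lower at P28, against 21.6% of all genes lower without overlap and 45.1% in either direction. The median of the 10 was -0.70, beside -0.01 over all genes. Cell type markers moved in the same comparison. At P28, 7 of 12 dermal papilla and 3 of 6 dermal sheath and smooth muscle markers were higher, beside 13.5% of all genes. Of 7 dermal fibroblast markers 3 were lower, and of 7 endothelial markers 1 was, beside 11.9% of all genes. The part of these markers in the clock gene differences was not tested.

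The calls on Per1 and Per2 held under each alternative run, with adjusted p of at most 0.0123 and 0.0137 when 1 library was left out. Those on Cry1 and Per3 did not. Cry1 was no longer called without WT replicate 3 at P20 (log2 -0.53, adjusted p = 0.121) or without any single WT library at P28 (0.0954, 0.0508 and 0.0765 without replicates 1, 2 and 3). Per3 was lost without WT replicate 1 or 2 at P20 (0.148 and 0.108) and without WT replicate 1 or 3 at P28 (0.118 and 0.15).

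Calls on Arntl, Dbp and Nr1d2 depended on the library that stood apart. Without WT replicate 3 at P20, 6 of the 10 genes were called. In that fit 2649 of 14815 genes were called, against 3761 of 14790 with all libraries. Per1, Per2 and Per3 were called as before. Now Arntl was higher at P28 (log2 1.69, adjusted p = 0.00878), Dbp lower (-1.53, 0.00625) and Nr1d2 lower (-1.17, 0.0157). The library was singled out by its values for these same genes, so the added calls are a description and no separate test. With that library, the same differences were 0.93 for Arntl (adjusted p = 0.231), -0.67 for Dbp (0.428) and -0.74 for Nr1d2 (0.139). Nr1d1 went from 0.39 with that library to -0.58 without it, and edgeR and DESeq2 on all libraries both gave -0.08, with no call in any of them. Clock (-0.23) and Cry2 (-0.62) were not called with or without it.

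In Smo* cells the same 2 ages compare telogen with early anagen. None of the 10 genes was called, 3 had an unadjusted p under 0.05, and 3.46% of all genes were called. Per2 was at 2609 ± 942 at P20 and 1019.6 ± 405 at P28 (log2 -1.35, SE 0.36, adjusted p = 0.0588). Cry1 was at 1206 ± 302 and 616 ± 108 (log2 -0.95, SE 0.26, adjusted p = 0.0595). DESeq2 (0.00469 and 0.00849), quantile normalization (0.0496 and 0.0469) and leaving out Smo* replicate 2 at P20 (0.0434 and 0.0453) each called both Per2 and Cry1 lower. Nr1d1 had the largest difference in the other direction, 1.45 (SE 0.60, adjusted p = 0.181), from 2573 ± 864 to 6751 ± 798. Per2, Cry1, Dbp and Nr1d1 were the 4 genes whose Smo* groups did not overlap between ages, against 24.4% of all genes.

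**Figure D3:**
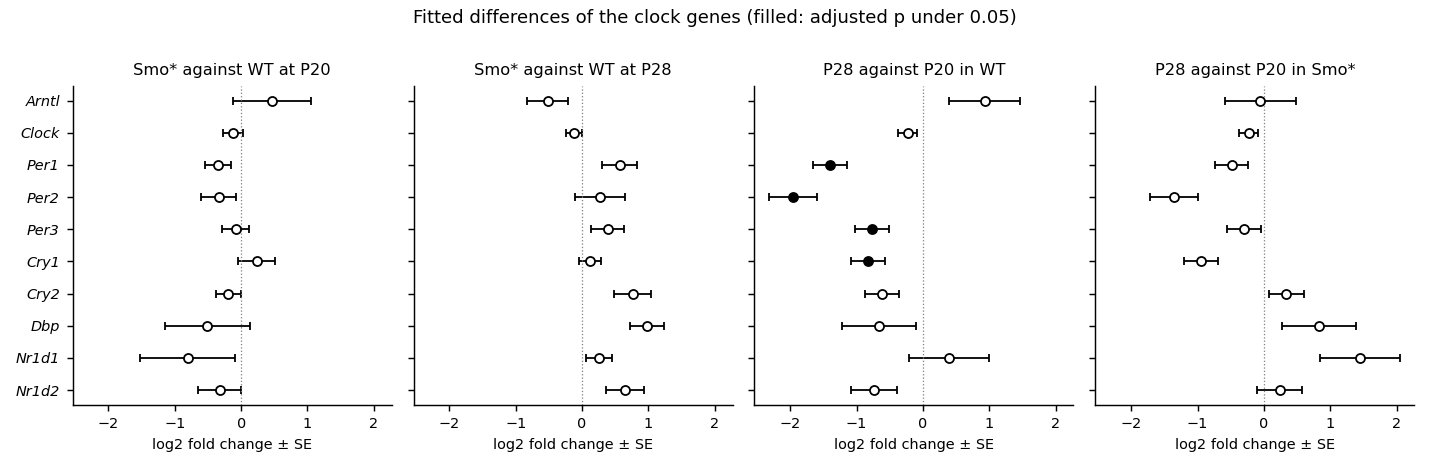
Log2 fold change of each clock gene (points, with bars of 1 SE from limma) in 4 comparisons; filled points have an adjusted p under 0.05. Filled points appear for Per1, Per2, Per3 and Cry1 in the comparison of ages in WT, at -1.40, -1.96, -0.77 and -0.83.

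Whether the Smo* effect itself differed between ages was tested with an interaction term. None of the 10 genes was called, 2 (Per1 and Cry2) had an unadjusted p under 0.05, and 4.72% of all genes were called. The differences, Smo* over WT at P28 minus the same at P20, ran from -0.99 (SE 0.76) for Arntl to 1.5 (SE 0.79) for Dbp. Per1 was at 0.92 (SE 0.36, adjusted p = 0.161) and Cry2 at 0.96 (SE 0.37, adjusted p = 0.155). The median was 0.76, beside -0.02 over all genes. Without WT replicate 3 at P20, Dbp (2.37, adjusted p = 0.014) and Nr1d1 (2.02, adjusted p = 0.0212) were called, and with it they were not (0.296 and 0.503). In the fit without it 405 of 14815 genes were called, against 698 of 14790 with all libraries. That library was singled out by its values for these same genes, so the added calls are a description and no separate test.

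Levels between genes were compared per kilobase of exon. In WT at P20 Nr1d1 was the highest, at a mean of 1979 normalized reads per kilobase, then Per1 (1548) and Nr1d2 (879.7), while Arntl was the lowest (44.9). The libraries behind this Nr1d1 mean differed by a factor of 9.0, and in replicate 3 Nr1d1 was below both Per1 and Nr1d2 per kilobase. In WT at P28 Nr1d1 was at 1871, Per1 at 592, Nr1d2 at 499, Per2 at 149 and Arntl at 63.9. Over the order of the 4 group means, the gaps that separated neighbouring groups were few. They lay between Smo* at P20 and Smo* at P28 for Per2, between WT at P20 and Smo* at P28 for Cry1, between Smo* at P28 and Smo* at P20 for Dbp, and between WT at P28 and Smo* at P20 for Nr1d1. For Arntl, Clock, Per1, Per3, Cry2 and Nr1d2 no neighbours in the order were separated.

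Of 12 other transcription factors and repressors of the clock, 5 were lower and 1 was higher at P28 than at P20 in WT (median log2 fold change -0.91), beside 11.9% of all genes called lower and 13.5% called higher. Hlf, the D-box activator related to Dbp, went from 1724, 1151 and 925 to 352, 549 and 451 (log2 -1.46, SE 0.28, adjusted p = 0.00302). Tef, of the same family, fell by 0.90 (SE 0.18, adjusted p = 0.0032), and Nfil3, which opposes them at D-boxes, by 1.26 (SE 0.32, adjusted p = 0.0128). Nfil3 was not called without WT replicate 3 at P28 (adjusted p = 0.0603). The calls on Hlf and Tef held under each alternative. Ciart (-1.41, adjusted p = 0.039) and Rora (-0.71, adjusted p = 0.0464), chosen after their values were seen to complete the count, were lost without several single libraries, up to adjusted p = 0.159 without WT replicate 2 at P20 for Ciart and 0.185 without WT replicate 3 at P28 for Rora.

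Of these 12 factors 4 had a log2 fold change above 0 between ages in WT, and only Rorb, a ROR receptor gene, was called higher. It had 376, 428 and 359 normalized reads in WT and 360.5, 324 and 419 in Smo* at P20, 2222, 3541 and 2786 in WT at P28, and 262, 319 and 129 in Smo* at P28. Only the WT libraries in anagen VI were high, and they overlapped no other group. Rorb was thus higher at P28 in WT (log2 2.85, SE 0.28, adjusted p = 3.2e-05) and lower in Smo* than in WT at P28 (-3.66, SE 0.33, adjusted p = 0.000656). Its fold change at P20 was -0.08 (adjusted p = 0.9), and between ages in Smo* it was -0.72 (adjusted p = 0.151). Dermal papilla markers moved in the same comparisons: 7 of 12 were higher at P28 in WT, beside 13.5% of all genes, and in Smo* against WT at P28 4 were lower and 1 was higher, beside 4.85% and 4.05% of all genes. Corin had 69922, 69681 and 79819 normalized reads in WT at P28 and 4148, 7856 and 751 in Smo*. The part of that difference in the Rorb values was not tested.

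Among the other factors at P20 none of the 12 was called in Smo* against WT. Rora had the smallest p, with a log2 fold change of -0.60 (SE 0.16, adjusted p = 0.2) and groups that did not overlap. It was called without Smo* replicate 1 at P20 (-0.78, adjusted p = 0.0422). Of the 7 kinases and ubiquitin ligases that act on clock proteins, only Fbxl21, a ligase subunit for cryptochromes, was called in any of the 5 comparisons. It was higher at P28 in WT, with 14.7, 16.7 and 15.4 normalized reads at P20 and 97.3, 65.3 and 145 at P28 (log2 2.57, SE 0.68, adjusted p = 0.0161), and lost its call without WT replicate 3 at P28 (0.0722). In Smo* against WT at P28 it was at -1.99 (adjusted p = 0.145) by limma, while the authors' deposited table calls Fbxl21 lower there (-1.15, adjusted p = 0.0445). Where none of the 7 was called, the smallest p also belonged to Btrc in Smo* against WT at P20 (0.19, adjusted p = 0.603) and Csnk1e between ages in Smo* (-0.20, adjusted p = 0.392).

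Of 7 genes known as outputs of the clock, 5 were lower at P28 than at P20 in WT (median -1.74) and 2 were not called, beside 11.9% of all genes called lower. In Smo* against WT at P28, 3 of the 7 were higher and 4 were not called (median 0.54), beside 4.05% of all genes called higher. Wee1, a kinase that holds back mitosis, had 2103, 2468 and 2530.4 normalized reads in WT at P20 and 285, 379 and 157 in WT at P28. Smo* had 1870.4, 958 and 1583 at P20 and 1060.1, 572 and 603 at P28. It fell with age in WT by 3.20 (SE 0.33, adjusted p = 4.81e-05) and was higher in Smo* at P28 by 1.47 (SE 0.36, adjusted p = 0.0408). Cdkn1a, which encodes the cell cycle inhibitor p21, had 9861, 9394 and 12731 in WT at P20 and 1581, 1260.2 and 1025 in WT at P28, against 5181, 2698 and 2461 in Smo* at P28. Its log2 fold changes were -3.06 with age in WT (adjusted p = 4.4e-05) and 1.36 in Smo* at P28 (adjusted p = 0.0254). Usp2, a deubiquitinase, gave -1.97 (adjusted p = 0.000719) and 1.32 (adjusted p = 0.0245) in the same 2 comparisons. In WT all 3 genes separated the 2 ages completely.

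The calls on these 3 genes in Smo* at P28 were close to the threshold. Without WT replicate 3 the adjusted p was 0.107 for Wee1, 0.102 for Cdkn1a and 0.0921 for Usp2, and without WT replicate 2 it was 0.0552, 0.0978 and 0.0936. Wee1 and Usp2 were also lost without Smo* replicate 1 (0.102 and 0.0566), and Wee1 without WT replicate 1 (0.0873) or Smo* replicate 2 (0.0508). Without a variance trend all 3 were lost, at 0.107 for Wee1, 0.0853 for Cdkn1a and 0.0772 for Usp2. Klf9, a transcription factor that glucocorticoids also induce, fell with age in WT by 1.74 (SE 0.30, adjusted p = 0.00146). Tsc22d3, the glucocorticoid-induced leucine zipper gene, also chosen after its values were seen, was at -1.74 (adjusted p = 0.019). It was lost without WT replicate 2 or 3 at P20 (0.0614 and 0.0818) or WT replicate 1 or 3 at P28 (0.0655 and 0.078). In Smo* between ages none of the 7 was called, the smallest p being that of Wee1 (-0.98, adjusted p = 0.108). At P20 none was called in Smo* against WT, with Cdkn1a at -0.88 (adjusted p = 0.253).

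**Figure D4:**
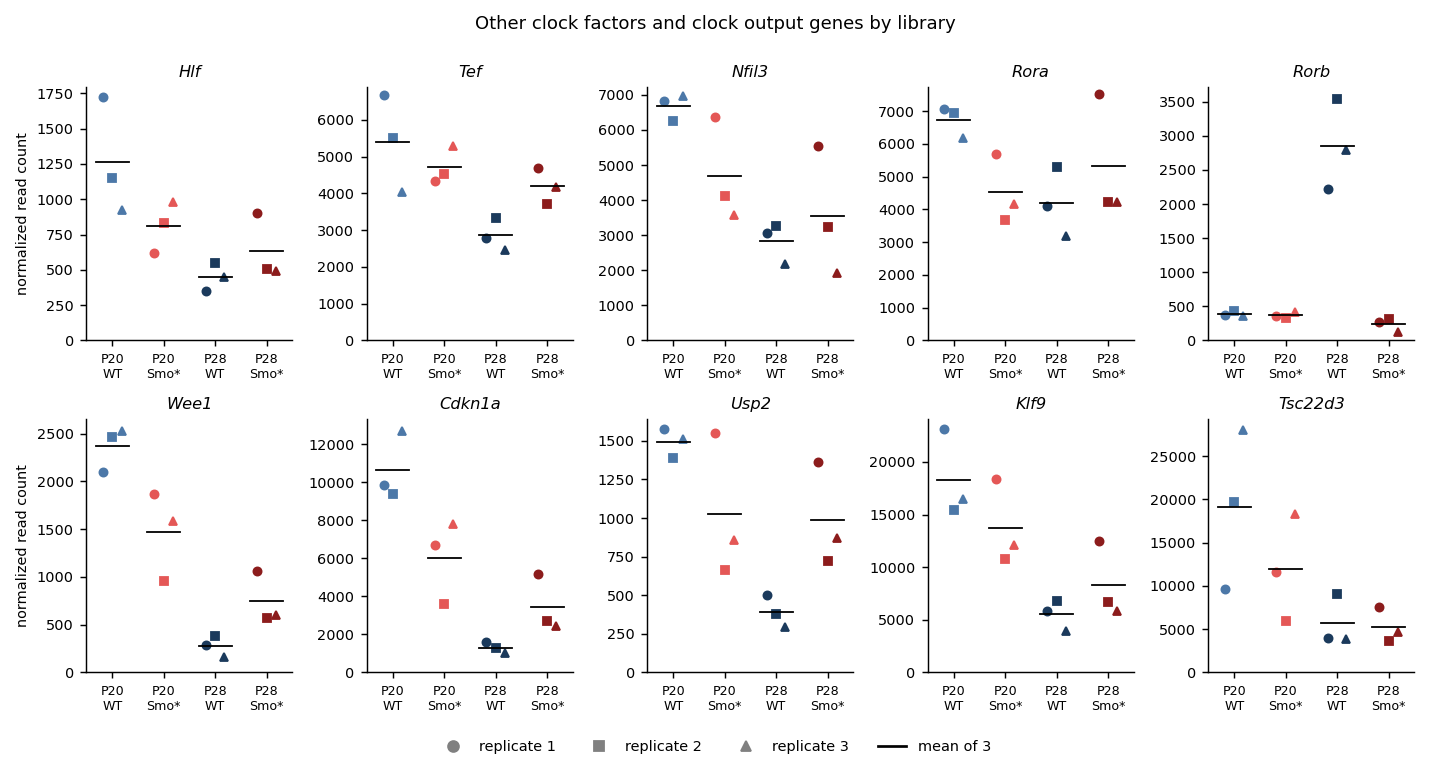
Normalized read count (vertical axis, from 0) of 5 other clock factors and 5 clock output genes in the 12 libraries, by group; symbols mark replicates 1 to 3 and black lines the mean of 3. Rorb is high only in WT at P28 (2222 to 3541), where Wee1 (157 to 379) and Cdkn1a (1025 to 1581) are lowest.

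Genes of other programs were also called in these comparisons. Between ages in WT, where 11.9% of all genes were called lower, 8 of 9 glucocorticoid response genes were lower at P28 (median -1.74), among them Fkbp5 (-2.64, adjusted p = 0.000978), and this list shares Klf9 and Tsc22d3 with the outputs. Of 20 immediate early and dissociation genes 7 were lower (median -0.53), led by Egr3 (-3.51, adjusted p = 2.72e-05) and Nr4a2 (-2.88, adjusted p = 0.000761). Of 12 replication and mitosis genes 3 were lower (median -0.52), with Pcna at -0.81 (adjusted p = 0.00463). In Smo* against WT at P28, 0 of the 9 glucocorticoid genes were called. There 4.05% of all genes were called higher. Of the 20 immediate early genes 3 were higher, with Egr3 at 3.46 (adjusted p = 0.00153) and Nr4a2 at 2.80 (adjusted p = 0.00411), and so were 2 of the 12 replication genes, Mcm2 (1.45, adjusted p = 0.0304) and Pcna (0.71, adjusted p = 0.0169). At P20 and between ages in Smo* none of these 3 lists had a called gene. The part of these programs in the Per1 and Per2 differences was not tested.

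The genes whose pattern over the 12 libraries was most like that of 4 clock genes were named by Pearson r of the log2 values, as a description. Nearest to Per1 were Jmjd1c (r = 0.965), Klf13 (0.964), Ppp2r2d (0.960), Rapgef6 (0.955) and Klf9 (0.954), and most opposite were Prkaca (-0.952), Fh1 (-0.947) and Lrfn1 (-0.944). Arntl was most like Kyat3 (0.881), Adcy5 (0.843), St3gal3 (0.832), Arhgap29 (0.821) and Coq2 (0.807). Its most opposite genes were the clock repressor Ciart (-0.880), Ap3b1 (-0.865) and Lsm8 (-0.849). Dbp was most like Bhlhe41 (0.835) and Nr1d2 (0.817), both of the clock, then Atg7 (0.811), Slc16a6 (0.809) and Aimp1 (0.804), and most opposite to Pigb (-0.840), Leo1 (-0.823) and Gripap1 (-0.821). Nr1d1 was nearest to Dtd1 (0.852), Sumo3 (0.847), Fam172a (0.845), Selenow (0.838) and Sfxn1 (0.817) and most opposite to Shc4 (-0.862), Epb41l3 (-0.851) and Atp1b1 (-0.830). Without WT replicate 3 at P20, Ciart kept r = -0.919 with Arntl, while the r of Fam172a with Nr1d1 was 0.712 and that of Slc16a6 with Dbp 0.692.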

How the data were processed

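The data are 12 RNA-seq libraries of sorted mouse dermal papilla cells in 4 groups of 3, grouped by their titles. Per the labels' protocols, NEBNext Ultra Directional libraries were prepared from 100 ng of RNA (RNeasy Plus Micro) after depletion of ribosomal RNA. Trimmomatic, TopHat2 (version 2), HTSeq, DESeq2, mm10 and GRCm38.p4 are named in the submitters' processing notes, with no role, order or strand setting. The authors deposited 2 tables of signal values, which are read counts divided by 1 size factor per library. Whole reads were recovered for 100% of values in each library (within 0.01 reads). The deposited mean of each gene equals its mean over the 12 libraries, so the tables share 1 scaling. The authors' deposited log2 fold changes (WT over Smo*, turned here), p-values and test scores were used only where named. Sums of reads on genes, the depth, were 36323058 to 48926831.

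GENCODE M21 (GRCm38) named 25639 of the 25887 identifiers (99.0%), and promoter sequences are RefSeq's (GRCm38.p6). The main test was limma 3.58.1 with a variance trend on log2(value + 1), for genes with a mean of at least 10 in the libraries fitted, with Benjamini-Hochberg adjustment over all genes tested and a threshold of 0.05. A fold change on this scale understates the change of low genes. Smo* was compared with WT in 6 libraries at each age, and ages and the interaction in 1 fit of 12. The alternatives were edgeR 4.0.16 and DESeq2 1.42.0 on recovered reads, other scalings, filters, pseudocounts and thresholds, no variance trend, other sets of libraries, a replicate block and each library left out. Versions were R 4.3.3, Python 3.11.15 and pandas 2.3.3. Replicates were numbered in accession order. The block joins Smo* and WT libraries of nearest title numbers, except Smo* replicate 1 and WT replicate 2 at P28. These were joined as the pair left over, and their numbers are far apart. At P20 the deviations of all 3 pairs correlated above 0.1 (0.220, 0.120 and 0.270). At P28 those of 1 of 3 did, the pair left over. No label says what the numbers mean. The chi-square per gene between replicate libraries was 38.5 to 156, so none is a second deposit of another. Tested on data simulated for P20 (14753 genes), the fit called 46.2% of 106 genes given a log2 change of 1 and 89.4% of 94 given one of 2, while 6.99% of its calls had been given none.

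The 10 genes and all 17 lists were chosen with earlier results of these data known. Other clock genes (26 in 3 lists) are named if called, up to 4 per list and comparison by adjusted p, or the gene with the smallest p where none was called. From the glucocorticoid, immediate early and replication lists, up to 2 genes are named. Genes alike are the 5 highest and 3 lowest Pearson r among 12024 genes with a mean of at least 50.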

Additional observations from a re-analysis of the deposited data

Results flagged for a closer look

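The effect of Smo* differed between P20 and P28 for 4 genes of the wider clock set, by the interaction term of limma with Benjamini-Hochberg adjustment, where 4.72% of all genes were called. For Rorb the effect at P28 was lower than at P20 by a log2 difference of -3.57 (SE 0.39, adjusted p = 0.000471), and it was called in each alternative run. The difference was 2.24 for Cdkn1a (SE 0.44, adjusted p = 0.016), 2.21 for Wee1 (SE 0.47, adjusted p = 0.0216) and 1.95 for Usp2 (SE 0.43, adjusted p = 0.0257). In these 3 output genes the Smo* effect was below 0 at P20 and above 0 at P28. At P20 all 7 output genes were below 0, and none was called there. All 9 glucocorticoid response genes and 18 of the 20 immediate early and dissociation genes were also below 0 at P20, with none called. Cdkn1a was no longer called without P28 WT replicate 3 (0.0515). Wee1 was lost without P20 WT replicate 2 (0.0561) or 3 (0.0508), and Usp2 in 8 of the fits that left out a library (0.0518 to 0.077). Without a variance trend Wee1 (0.0554) and Usp2 (0.0593) were also lost. None of the 10 core genes was called by this test, with a median difference of 0.76. On simulated data the interaction fit called 22.3% of 94 genes given a log2 change of 1 and 83.0% of 106 given one of 2. A difference of the smaller size would thus often be missed. Genes of other lists were called. Of 20 immediate early and dissociation genes 4 were higher, with Egr3 at 3.32 (adjusted p = 0.00293) and Nr4a2 at 3.55 (adjusted p = 0.00974). Of 7 endothelial markers 2 were higher, and of 12 dermal papilla markers 2 were lower. Of the 9 glucocorticoid and 12 replication genes 0 were called, though all of both lists were above 0. The median was 1.43 for the glucocorticoid genes and 0.61 for the replication genes, beside 1.03 for the 7 outputs. Of the glucocorticoid genes 6 had an unadjusted p under 0.05 (limma), as did 5 of the outputs and 1 of the replication genes. The part of these genes in the differences above was not tested.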

How the results depend on the processing

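In Smo* against WT at P20 the count of core clock genes called was 0 under each alternative. At P28 it was 0, and it was 1 with TMM scaling, a pseudocount of 5, DESeq2 or a threshold of 0.1 (Dbp each time). It was also 1 by the authors' deposited adjusted p (Cry2), 0 to 1 with single libraries left out, and 3 with the replicate block. Between ages in WT it was 4, and it was 2 without a variance trend or at a threshold of 0.01, and 2 to 6 with single libraries left out. Between ages in Smo* it was 0, and it was 2 with quantile normalization, DESeq2 or a threshold of 0.1, and 0 to 2 with single libraries left out. For the interaction it was 0, and 0 to 2 with single libraries left out.

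The labels do not say that nearest title numbers share a litter or day. Deviations of the joined pairs correlated at 0.220, 0.120 and 0.270 at P20 and at -0.058, -0.031 and 0.195 at P28. All 3 pairs thus exceed 0.1 at P20 and 1 of 3 does at P28. That pair at P28, Smo* replicate 1 with WT replicate 2, was left over and is not of nearest numbers. With the replicate block, which includes it, Cry2 (adjusted p = 0.0402), Dbp (0.0418) and Nr1d2 (0.0492) were called at P28. The block called 0 core genes at P20 and for the interaction, and could not be fitted between ages, where no pairs cross.

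Differences that changed sign were never called with either sign. Nr1d1 between ages in WT was -0.0827 by edgeR and -0.0808 by DESeq2, and Clock in the interaction 0.0016 by DESeq2. With single libraries left out, log2 values at P20 ran from -0.23 to 0.022 for Clock, -0.30 to 0.10 for Per3 and -1.38 to 0.063 for Dbp. At P28 they ran from -0.0341 to 0.67 for Per2 and -0.0162 to 0.22 for Cry1. Between ages they ran from -0.58 to 1.01 for Nr1d1 in WT, and in Smo* from -0.39 to 0.25 for Arntl and -0.0639 to 0.42 for Nr1d2. In the interaction they ran from -0.14 to 0.11 for Clock and -0.42 to 0.0573 for Cry1. The cause was not tested.

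Over all genes, 102 were called at P20, against 9 without a variance trend, 473 by DESeq2, 239 with the block, 342 by the authors, 224 and 9 at thresholds of 0.1 and 0.01, and 8 to 129 with single libraries left out. At P28 1313 were called, against 638, 2282, 2058 in 1 fit of 12 libraries, 2880 by the authors, 2177 and 405 at those thresholds, and 461 to 1619. Between ages in WT 3761 were called, against 1940 at 0.01 and 2336 to 3139. In Smo* 511 were called, against 225 without a trend, 1626 by DESeq2, 69 in 6 libraries, 1361 and 33 at the thresholds, and 49 to 1049. There 57.3% of calls were higher, and 46.8% with quantile normalization. For the interaction 698 were called, against 384, 1474, 1425, 166 and 254 to 922 in the same order, with no 6-library fit. Reads behind the core genes ranged from 133 to 9221 per library.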
